A study of Mus musculus with 16 samples.

Results

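The genes described here are 10 chemokine ligands, Ccl1, Ccl3, Ccl4, Ccl5, Ccl9, Ccl20, Ccl22, Xcl1, Cxcl2 and Ppbp, taken by symbol from the 19938 genes measured in mouse CD8 T cell clones after activation. All 10 were found, each with 1 probe set, and none was left out for a low level. The study compared a pair of clones, a conventional one labelled cyclosporine-sensitive and an unconventional one labelled cyclosporine-resistant. Each was activated with immobilized anti-CD3 antibody, which engages the T cell receptor complex, in RPMI medium without recombinant cytokines, either alone or with cyclosporine A at 1 ug per ml. Before activation, both had been kept in medium with IL-1a, IL-6, IL-7, IL-15, TNF-α and interferons, per the labels' growth protocol. RNA of each of these 4 groups was hybridised to 4 Affymetrix arrays, 16 in all. Each kind of CD8 T cell is represented by 1 clone, so the kind of cell and the individual clone cannot be told apart. Unstimulated cells were not analysed here, and induction by anti-CD3 was therefore not measured.

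Chemokines are small secreted proteins that direct the migration of leukocytes through G protein-coupled receptors. They are classed by the spacing of their first cysteines as C (Xcl1), CC (the Ccl genes) or CXC (Cxcl2 and Ppbp). Activated CD8 T cells are known as sources of the CC chemokines Ccl3, Ccl4 and Ccl5 and of Xcl1, which are released with interferon-γ and recruit other lymphocytes, macrophages and dendritic cells. Cyclosporine A, bound to cyclophilin A, blocks calcineurin, the phosphatase that brings NFAT transcription factors into the nucleus when the T cell receptor signals.

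Most of the 10 chemokine genes were lower with cyclosporine A, in both clones. Ccl3, Xcl1, Ccl1 and Cxcl2 fell in each clone, and for Ccl3 and Cxcl2 the change was called different between the clones. It was also called different for Ccl4, Ccl5, Ccl9 and Ccl20. Ccl4 fell far less in the conventional clone than in the unconventional one. Ccl5 fell in the conventional clone and was not called lower in the unconventional one. Ccl9 and Ccl20 stood above the background range in the conventional clone alone, without the drug, Ccl20 only just. Ppbp was high in the unconventional clone, with and without the drug, and low in the conventional clone. Ccl22 was at background in all 4 groups, so the label of a chemokine of activated CD8 clones was not borne out for it.

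Values below are log2 expression levels as deposited, listed for replicates 1 to 4 of a group, with means ± SD over n = 4 arrays. A change is a difference of log2 levels with its standard error (SE), from a limma fit to all 16 arrays, and the word called marks a gene whose p, adjusted over all 19938 genes, was under 0.05. Levels of different genes come from different probe sets and were not compared with each other. As a guide to background, 29 genes of distant tissues such as liver, muscle and brain had mean levels with a median of 4.39, a 5th percentile of 3.04 and a 95th percentile of 6.42, the highest being 6.99. A group whose mean lay between those percentiles is described as in the background range. A percent of signal left in such a group is an upper limit, written as at most, and a fold over such a group is a lower limit, written as at least. In such bulk RNA, fewer cells making a transcript and less of it per cell cannot be told apart.

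The arrays of a group correlated at 0.995 to 0.998 over all probe sets, and no 2 arrays were identical. Of 8 T cell and CD8 markers, Cd3e, Cd3d, Cd3g, Cd247, Cd8a and Cd8b1 had group means of at least 8.56, the lowest being Cd8a in the unconventional clone with the drug, while Cd2 (3.99 to 4.25) and Cd5 (4.83 to 5.12) lay in the background range in all groups, as did Cd4 (4.21 to 4.32). Nothing in the labels says that replicates came from separate cultures, so the spread behind the p-values may be technical.

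With cyclosporine A, 8 of the 10 genes fell in the conventional clone, where 15.5% of all genes were called lower. None rose there in the limma fit (0 of 10 also at an unadjusted p under 0.05), where 15.9% of all genes were called higher. In the unconventional clone 7 of the 10 fell, beside 12.3% of all genes. None was called higher in the same fit, beside 12.6% of all genes (0 of 10 at an unadjusted p under 0.05, and 1 of 10, Ccl5, when that clone's 8 arrays were fitted alone). The 6 that were lower in both clones were Ccl1, Ccl3, Ccl4, Ccl9, Xcl1 and Cxcl2. The median change of the 10 genes was -2.13 in the conventional and -1.97 in the unconventional clone, against 0.02 in each over all genes. The 2 drug comparisons rest on separate arrays with 1 common variance estimate for each gene.

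The change with the drug differed between the clones for 6 of the 10 genes. For Ccl5, Ccl9 and Ccl20 it was higher, that is a smaller fall or none, in the unconventional clone (3 of 10, beside 8.51% of all genes). For Ccl3, Ccl4 and Cxcl2 it was lower, a larger fall, in the unconventional clone (3 of 10, beside 7.78% of all genes). For Ccl9, Ccl20 and Cxcl2 both groups with the drug were in the background range, so the size of each fall is bounded by the level without the drug, and for these 3 a difference in drug response cannot be told apart from a difference in that level. No difference was called for Ccl1, Xcl1, Ppbp and Ccl22. Both groups with the drug were in the background range for Ccl1 and Xcl1 too, as were both conventional groups for Ppbp and all groups for Ccl22. The lack of a call therefore does not show equal responses.

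**Figure D1:**
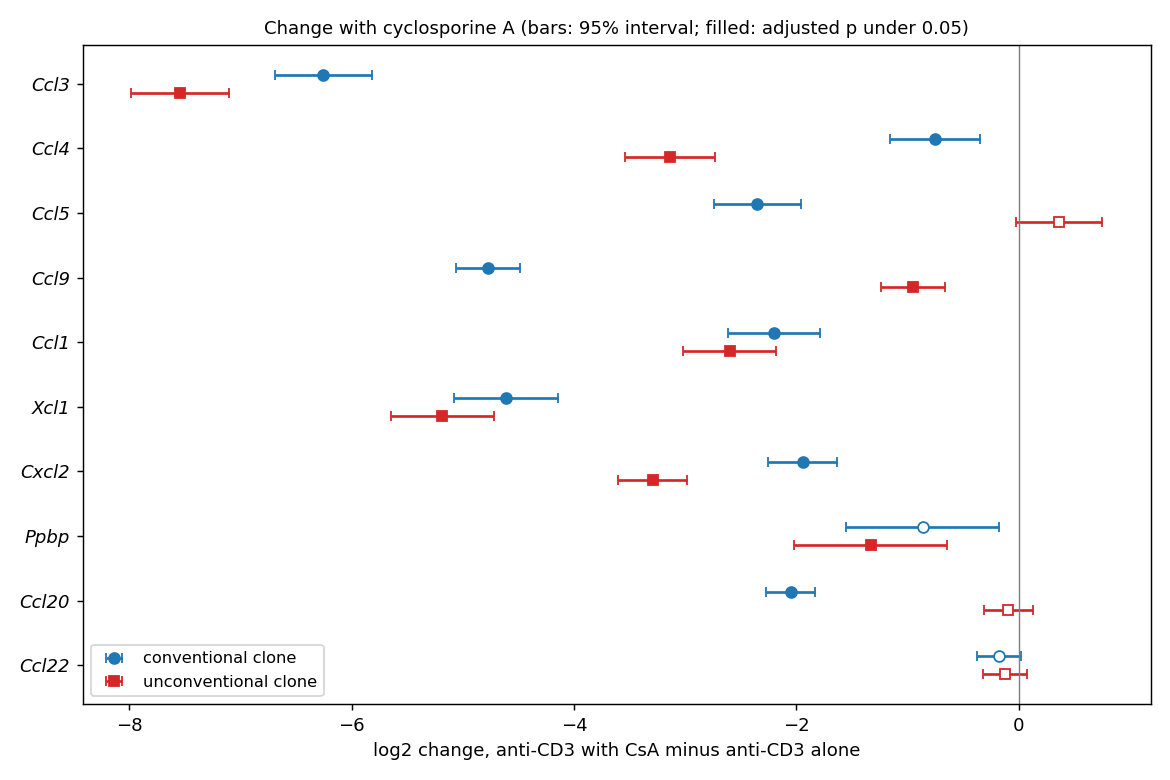
Change in log2 expression with cyclosporine A (CsA) for the 10 chemokine genes (rows), in the conventional clone (circles) and the unconventional clone (squares), with 95% intervals from the limma fit and filled symbols where the adjusted p was under 0.05. The intervals of the clones lie apart for Ccl3, Ccl4, Ccl5, Ccl9, Cxcl2 and Ccl20 and overlap for Ccl1, Xcl1, Ppbp and Ccl22.

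Promoter sequences are shown for 6 of the genes because they stand for the 3 patterns: Ccl3, Xcl1 and Cxcl2 fell in both clones, Ccl9 and Ccl20 were high in the conventional clone only with anti-CD3 alone, and Ppbp was high in the unconventional clone. Each is the 250 bases before the gene's RefSeq start in GRCm38.p6, written 5′ to 3′ on the gene's strand. Capitals mark matches, on either strand, to the NFAT core GGAAA, to the AP-1 motif TGANTCA, to the NF-kB consensus and to the TATA box TATAAA.
Ccl3 (chr11:83649379-83649628, minus strand): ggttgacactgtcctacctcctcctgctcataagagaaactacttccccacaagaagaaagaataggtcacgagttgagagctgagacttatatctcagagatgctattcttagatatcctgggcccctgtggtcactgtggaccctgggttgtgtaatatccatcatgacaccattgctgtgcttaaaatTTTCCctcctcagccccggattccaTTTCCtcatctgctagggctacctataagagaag
Xcl1 (chr1:164935523-164935772, minus strand): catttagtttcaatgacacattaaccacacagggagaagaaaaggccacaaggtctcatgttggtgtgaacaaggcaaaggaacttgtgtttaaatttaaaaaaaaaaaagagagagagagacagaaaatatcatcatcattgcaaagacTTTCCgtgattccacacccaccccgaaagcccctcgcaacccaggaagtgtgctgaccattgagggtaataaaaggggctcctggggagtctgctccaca
Cxcl2 (chr5:90903649-90903898, plus strand): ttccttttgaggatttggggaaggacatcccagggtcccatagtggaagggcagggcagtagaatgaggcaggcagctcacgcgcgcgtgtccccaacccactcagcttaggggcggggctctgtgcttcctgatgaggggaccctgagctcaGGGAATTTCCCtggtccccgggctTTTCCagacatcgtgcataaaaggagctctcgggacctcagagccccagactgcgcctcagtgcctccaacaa
Ccl9 (chr11:83578637-83578886, minus strand): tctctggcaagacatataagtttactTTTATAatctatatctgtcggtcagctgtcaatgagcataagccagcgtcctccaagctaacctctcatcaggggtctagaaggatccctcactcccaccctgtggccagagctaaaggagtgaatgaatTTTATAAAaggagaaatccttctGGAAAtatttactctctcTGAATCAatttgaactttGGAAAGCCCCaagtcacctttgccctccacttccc
Ccl20 (chr1:83116516-83116765, plus strand): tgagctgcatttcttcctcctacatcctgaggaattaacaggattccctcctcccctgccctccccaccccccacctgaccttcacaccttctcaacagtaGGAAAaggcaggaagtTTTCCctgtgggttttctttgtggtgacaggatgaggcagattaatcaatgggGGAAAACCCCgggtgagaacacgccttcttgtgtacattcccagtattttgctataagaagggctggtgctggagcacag
Ppbp (chr5:90768268-90768517, plus strand): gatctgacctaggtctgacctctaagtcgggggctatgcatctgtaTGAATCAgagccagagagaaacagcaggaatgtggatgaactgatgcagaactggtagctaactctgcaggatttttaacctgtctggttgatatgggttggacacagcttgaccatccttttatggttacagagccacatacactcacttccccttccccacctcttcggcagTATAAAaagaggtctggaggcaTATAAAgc

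Ccl3 holds 2 NFAT cores, 30 to 34 and 55 to 59 bases upstream of the start, and Xcl1 holds 1, 96 to 100 bases upstream. Cxcl2 holds 2 NFAT cores and an NF-kB match that reads on both strands with a shift of 1 base, and 1 of the cores lies inside it. Ccl9 holds 3 TATA box matches, and an AP-1 motif lies 47 to 53 bases upstream, between 2 NFAT cores, and the nearer core lies within an NF-kB match. Ccl20 holds 3 NFAT cores, 1 of them within an NF-kB match 71 to 80 bases upstream. The Ppbp promoter holds an AP-1 motif and 2 TATA boxes and no match to the NFAT core or the NF-kB consensus. Among the 8 members with a promoter sequence, 6 held the NFAT core, against 55.6% of 32851 promoter windows of the same length, 2 the AP-1 motif (6.75% of all), 3 the NF-kB consensus (3.90% of all) and 2 the TATA box (12.4% of all). The promoters of Ccl1, with 3 NFAT cores, and of Ccl22, with no match, were the others. These are matches of letters, and binding of any factor was not measured.

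Ccl3, Ccl5 and Ccl9 are ligands of CCR1, a receptor on macrophages, T cells and other leukocytes, and Ccl4 is a close relative of Ccl3. Ccl3, which encodes MIP-1α, read 13.78, 13.57, 13.62 and 13.63 in the conventional clone under anti-CD3 alone and 7.51, 7.22, 7.20 and 7.65 with the drug. The unconventional clone gave 12.77, 13.17, 13.18 and 12.97 without the drug and 4.53, 5.87, 5.57 and 5.93 with it. The 4 groups did not overlap, and those with the drug were the lower ones in both clones. The change was -6.25 (SE 0.21, adjusted p = 1.4e-14) in the conventional clone, which left 1.31% of the linear signal. It was -7.55 (SE 0.21, adjusted p = 1.9e-15) in the unconventional clone, with at most 0.535% left. The effects, unconventional minus conventional, differed by -1.29 (SE 0.30, adjusted p = 0.0039), and the level with the drug in the unconventional clone, 5.48 ± 0.65 (SD, n = 4), was within the background range.

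The neighbouring Ccl4 gene, which encodes MIP-1β, behaved otherwise in the conventional clone. There it read 12.57, 12.41, 12.54 and 12.69 with anti-CD3 alone and 11.78, 11.51, 11.72 and 12.20 with cyclosporine A, a small shift without overlap. The unconventional clone gave 9.80, 10.25, 10.35 and 10.36 and 6.31, 7.15, 7.33 and 7.42, lower throughout and further apart. The changes were -0.75 (SE 0.19, adjusted p = 0.0041) and -3.14 (SE 0.19, adjusted p = 2.5e-10), leaving 59.4% and 11.4% of the linear signal. They differed by -2.38 (SE 0.27, adjusted p = 2.4e-06). The order of the group means was conventional without drug, conventional with drug, unconventional without drug and unconventional with drug, with no overlap between neighbours. With the drug, the clones stood -4.75 (SE 0.19, adjusted p = 5.5e-14) apart, unconventional minus conventional. In the GRCm38.p6 gene table the annotated spans of Ccl3 and Ccl4 overlap; probe-level data were not used here, so cross-hybridisation between related chemokine transcripts was not tested.

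Ccl5, which encodes RANTES and is stored as transcript and protein in memory CD8 T cells, showed the opposite difference. It read 11.77, 11.36, 11.70 and 11.93 in the conventional clone under anti-CD3 alone and 9.25, 8.66, 9.39 and 10.06 with the drug, with a wide spread among the latter (SD 0.58). In the unconventional clone it read 11.46, 11.58, 11.49 and 11.60 without and 11.94, 11.88, 11.90 and 11.87 with the drug. Only the conventional clone with the drug stood below the other 3 groups, and the drug-treated unconventional arrays were all slightly above the untreated ones. The change was -2.35 (SE 0.19, adjusted p = 3.4e-09) in the conventional clone, to 19.6% of the linear signal. In the unconventional clone it was 0.36 (SE 0.19, adjusted p = 0.19), not called, with a 95% interval of -0.03 to 0.75. Its groups had SDs of 0.07 and 0.03, and fitted on that clone's arrays alone the same 0.36 was called as a rise (adjusted p = 0.00067). The effects differed by 2.71 (SE 0.26, adjusted p = 3.1e-07). With anti-CD3 alone the clones differed by -0.16 (95% interval -0.55 to 0.23), and their arrays overlapped.

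Ccl9, MIP-1γ, a CCR1 ligand of the mouse, read 9.64, 9.26, 9.30 and 9.64 in the conventional clone under anti-CD3 alone and 4.84, 4.55, 4.96 and 4.38 with the drug. The unconventional clone read 5.00, 5.50, 5.60 and 5.25 and 4.23, 4.46, 4.33 and 4.52. One group, the conventional clone without the drug, stood above the background range, and the other 3 lay within it. The change was -4.78 (SE 0.14, adjusted p = 1.5e-15) in the conventional clone, to at most 3.65% of the linear signal, and -0.95 (SE 0.14, adjusted p = 2.2e-05) within the background range of the unconventional clone. The effects differed by 3.83 (SE 0.19, adjusted p = 8.9e-11). Between the clones the difference was -4.12 (SE 0.14, adjusted p = 4.0e-15) with anti-CD3 alone, whereas with the drug it was -0.30 (adjusted p = 0.088) and the arrays overlapped.

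**Figure D2:**
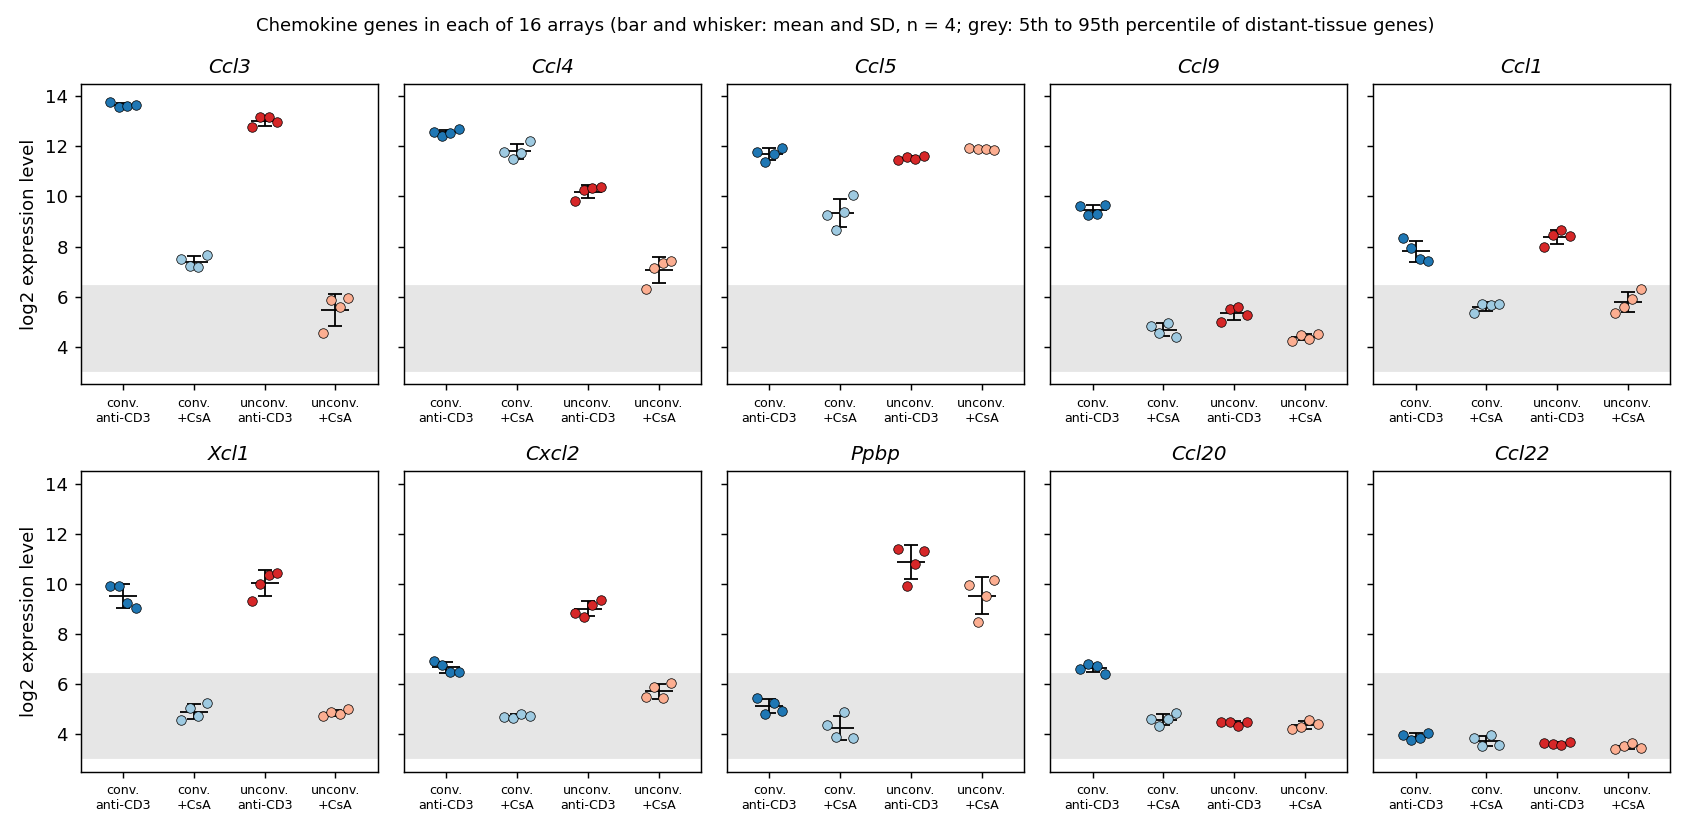
Log2 expression level of each chemokine gene (panels) in the 4 arrays of each group (points), with the mean and SD as bar and whisker and the 5th to 95th percentile of distant-tissue genes (3.04 to 6.42) in grey; conv. and unconv. are the clones, CsA cyclosporine A. Ccl3, Xcl1, Ccl1 and Cxcl2 drop with the drug in both clones, Ccl5 in the conventional clone, and Ppbp is high in the unconventional clone only.

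Ccl20, the ligand of CCR6, was highest in the same group as Ccl9. It read 6.60, 6.79, 6.73 and 6.41 in the conventional clone under anti-CD3 alone and 4.59, 4.32, 4.60 and 4.84 with cyclosporine A. The unconventional clone read 4.47, 4.50, 4.33 and 4.50 and 4.19, 4.28, 4.56 and 4.41. The first group stood apart at the edge of the background range, and the other 3 overlapped within it. The change was -2.05 (SE 0.11, adjusted p = 7.1e-12) in the conventional clone and -0.09 (SE 0.11, adjusted p = 0.65) in the unconventional one, with a 95% interval of -0.31 to 0.13, and the effects differed by 1.96 (SE 0.15, adjusted p = 1.5e-08). The clone difference with anti-CD3 alone was -2.18 (SE 0.11, adjusted p = 1.4e-12).

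Ccl1 and Ccl22 encode ligands of CCR8 and CCR4, receptors found on regulatory and type 2 helper T cells. Ccl1, first known as TCA-3, read 8.34, 7.96, 7.52 and 7.41 in the conventional clone under anti-CD3 alone and 5.35, 5.72, 5.66 and 5.69 with the drug. The unconventional clone gave 8.001, 8.48, 8.66 and 8.42 and 5.36, 5.59, 5.89 and 6.31. All arrays with the drug were lower than all without it, whichever the clone. The changes were -2.20 (SE 0.20, adjusted p = 2.3e-08) and -2.60 (SE 0.20, adjusted p = 6.1e-09), to at most 21.7% and 16.5% of the linear signal, and their difference of -0.40 was not called (adjusted p = 0.44, 95% interval -0.99 to 0.19). Ccl22 lay between 3.42 and 4.06 on all 16 arrays. The drug changed it by -0.18 (adjusted p = 0.18) and -0.12 (adjusted p = 0.45), and each pair of neighbouring groups overlapped.

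Xcl1, lymphotactin, attracts cross-presenting dendritic cells through XCR1. It read 9.92, 9.90, 9.22 and 9.02 in the conventional clone under anti-CD3 alone and 4.56, 5.06, 4.73 and 5.25 with the drug. The unconventional clone read 9.33, 10.01, 10.37 and 10.45 and 4.74, 4.87, 4.79 and 5.01. The groups without the drug overlapped each other, as did those with it, which lay in the background range. The changes were -4.61 (SE 0.22, adjusted p = 2.7e-12) and -5.18 (SE 0.22, adjusted p = 1.2e-12), leaving at most 4.08% and 2.75% of the linear signal. Their difference of -0.57 was not called (adjusted p = 0.28, 95% interval -1.23 to 0.09).

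Cxcl2 and Ppbp encode ligands of CXCR2, the main chemokine receptor of neutrophils. Cxcl2, MIP-2, read 6.92, 6.77, 6.47 and 6.49 in the conventional clone under anti-CD3 alone and 4.68, 4.66, 4.81 and 4.74 with the drug. In the unconventional clone it read 8.82, 8.69, 9.14 and 9.37 and 5.47, 5.88, 5.45 and 6.06. The 4 groups did not overlap, and the unconventional clone was the higher one in each condition. The drug changed it by -1.94 (SE 0.15, adjusted p = 2.1e-09) and -3.29 (SE 0.15, adjusted p = 2.3e-12), with a difference of -1.35 (SE 0.21, adjusted p = 8.9e-05). The level with the drug was in the background range in both clones, so each fall is a lower limit. The starting means were 6.66 and 9.01, and their part in the difference of the falls was not tested. The clones differed by 2.35 (SE 0.15, adjusted p = 7.5e-11) with anti-CD3 alone and by 0.99 (SE 0.15, adjusted p = 1.1e-05) with the drug.

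Ppbp encodes pro-platelet basic protein, the precursor of CXCL7, which is best known from platelet granules. In the conventional clone it read 5.46, 4.82, 5.24 and 4.94 with anti-CD3 alone and 4.37, 3.90, 4.87 and 3.86 with the drug, all within the background range. The unconventional clone read 11.40, 9.92, 10.79 and 11.31 and 9.94, 8.48, 9.52 and 10.15. Every array of the unconventional clone was above every array of the conventional one, and within each clone the drug and no-drug arrays overlapped. The clone difference was 5.74 (SE 0.33, adjusted p = 1.7e-11) with anti-CD3 alone, at least 53.4-fold, and 5.27 (SE 0.33, adjusted p = 4.0e-11) with the drug, at least 38.6-fold. The drug changed Ppbp by -1.33 (SE 0.33, adjusted p = 0.0042) in the unconventional clone, to 39.8% of the linear signal, and by -0.86 (adjusted p = 0.053, not called) in the conventional clone. That last value was called without conventional cyclosporine replicate 3, the highest array of its group (-1.07, adjusted p = 0.021). It was also called under 6 other settings, with adjusted p from 0.0071 with a replicate block to 0.049 after quantile normalization, so it stood at the threshold. The difference of effects, -0.47, was not called (adjusted p = 0.63, 95% interval -1.44 to 0.50).

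Of 8 platelet and megakaryocyte markers, 4 were measured. The integrin chain Itga2b lay between 5.34 and 5.65 over the group means, Gp9 between 4.39 and 4.54, Gp5 between 4.28 and 4.45 and Treml1 between 5.90 and 6.22, all in the background range. Their summed level was 20.3 to 20.9 in the conventional clone under anti-CD3 alone, 20.4 to 21.4 with the drug, and 19.5 to 20.5 and 19.7 to 20.3 in the unconventional clone. Between the clones 0 of the 4 were higher in the unconventional clone in the limma fit. The shares of all genes called higher were 20.3% with anti-CD3 alone and 21.3% with the drug. Itga2b was called lower in that clone with anti-CD3 alone, as were Itga2b and Treml1 with the drug, beside 21.7% and 23.0% of all genes. Pf4, a platelet chemokine gene next to Ppbp on chromosome 5, was in the background range too, with 3.47 ± 0.10 (SD, n = 4) in the unconventional and 3.62 ± 0.09 (SD, n = 4) in the conventional clone, both without the drug.

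The clones were also set against each other within each condition. With anti-CD3 alone, 3 of the 10 genes were higher in the unconventional clone (20.3% of all genes) and 5 were lower (21.7% of all genes). Median centring of the arrays turned the split over all genes from 4048 higher and 4328 lower to 4418 and 2952. Ppbp and Cxcl2 were higher and Ccl4, Ccl9 and Ccl20 lower by more than 2-fold. The smaller differences were 0.58 (SE 0.20, adjusted p = 0.024) for Ccl1, -0.63 (SE 0.21, adjusted p = 0.02) for Ccl3 and -0.27 (SE 0.09, adjusted p = 0.025) for Ccl22, and 0.52 (adjusted p = 0.067, not called) for Xcl1. Each of these 4 calls changed when 1 array was left out. The Ccl1 call was lost without conventional anti-CD3 replicate 3 (0.49) or 4 (0.45) or unconventional anti-CD3 replicate 2 (0.55) or 3 (0.49), and the Ccl3 call without unconventional anti-CD3 replicate 1 (-0.55). The Ccl22 call was lost without conventional replicate 1 (-0.26) or 4 (-0.22) or unconventional replicate 2 (-0.26) or 3 (-0.26). Xcl1 was called without conventional replicate 1 (0.66) or 2 (0.65) or unconventional replicate 1 (0.76). The normalization mattered too. Ccl22 was not called after quantile normalization (adjusted p = 0.12), median centring (adjusted p = 0.088) or cyclic loess (adjusted p = 0.12), nor Ccl1 after quantile normalization (adjusted p = 0.057). The Ccl3 call was lost with trended, robust moderation of the variances (adjusted p = 0.057), and Xcl1 was called after median centring (adjusted p = 0.04).

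With cyclosporine A in both clones, 3 of the 10 were higher in the unconventional clone (21.3% of all genes) and 2 were lower (23.0% of all genes). The higher ones were Ppbp, Ccl5 at 2.55 (SE 0.19, adjusted p = 4.2e-10) and Cxcl2, and the lower ones Ccl4 and Ccl3 at -1.92 (SE 0.21, adjusted p = 1.7e-07). Ccl5 stood 5.88-fold higher and Ccl4 26.9-fold lower in the unconventional clone under the drug. The count of lower genes was 4 without conventional cyclosporine replicate 2 or 4 or unconventional cyclosporine replicate 3, since Ccl22 and either Ccl20 or Ccl9 were then called, all at background levels. Over all genes, median centring turned the split from 4240 higher and 4581 lower to 4374 and 3562, and cyclic loess to 4224 and 3796. Drug and clone comparisons share arrays and are not independent of each other.

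**Figure D3:**
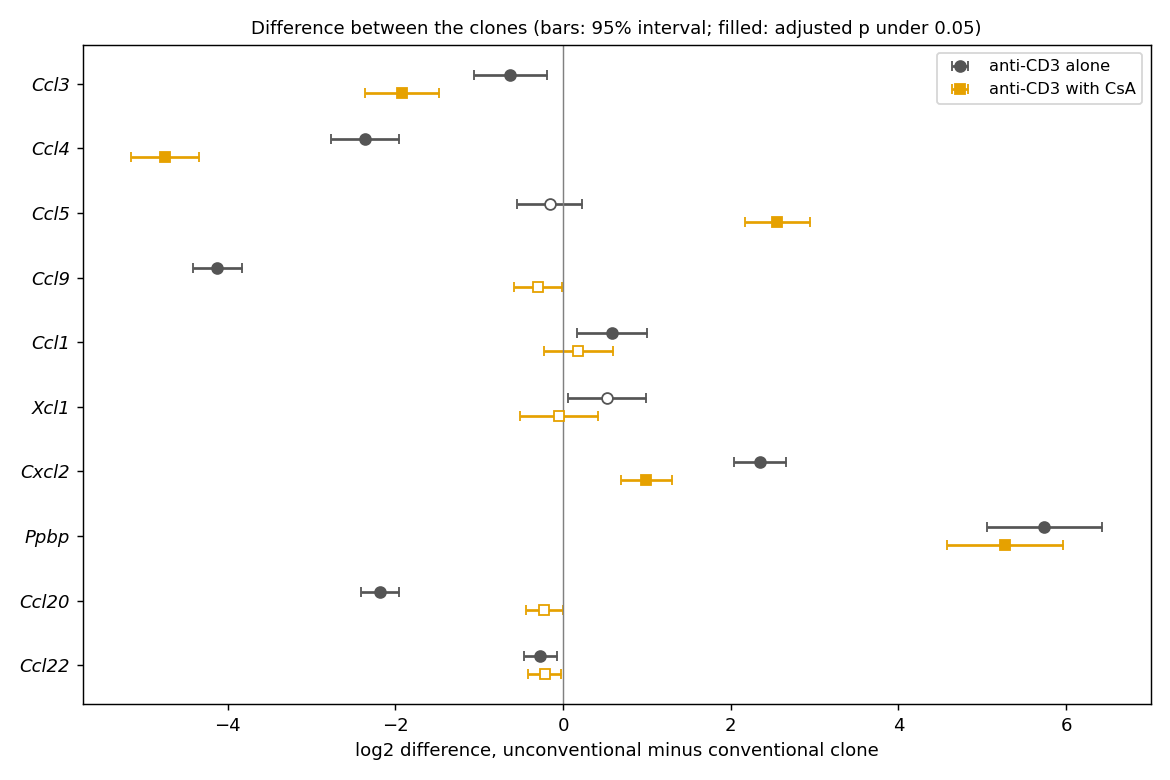
Difference in log2 expression between the clones, unconventional minus conventional, for the 10 chemokine genes (rows) with anti-CD3 alone (circles) and with cyclosporine A (CsA, squares), with 95% intervals from the limma fit and filled symbols where the adjusted p was under 0.05. Ppbp lies above 5 in both conditions, Ccl9 and Ccl20 differ with anti-CD3 alone, and Ccl5 differs with the drug.

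Of 28 further chemokine ligand genes listed, 26 were measured, and their median change with the drug was -0.002 in the conventional and -0.003 in the unconventional clone. Apart from Cxcl3, Ccl12, Cxcl13 and Cxcl1, none had a group mean above the background range. A fall of such genes could hardly be seen, so these medians do not show resistance to the drug. In the conventional clone 6 fell and 0 rose in the limma fit (0 at an unadjusted p under 0.05), beside 15.5% and 15.9% of all genes. In the unconventional clone 3 fell and 1 rose, beside 12.3% and 12.6% of all genes, so the share that fell there was near that of all genes. Cxcl3, a CXCR2 ligand like Cxcl2, had means of 8.44 ± 0.29 (SD, n = 4) and 5.19 ± 0.25 (SD, n = 4) in the conventional clone and 10.19 ± 0.26 (SD, n = 4) and 6.84 ± 0.29 (SD, n = 4) in the unconventional one. It fell by 3.25 (SE 0.16) and 3.35 (SE 0.16), and it was higher in the unconventional clone by 1.74 (adjusted p = 2.7e-08) without and 1.65 (adjusted p = 4.4e-08) with the drug. Cxcl13, the B cell attractant of lymphoid follicles, changed by -1.49 (SE 0.15, adjusted p = 1.5e-07) and -2.27 (SE 0.15, adjusted p = 1.0e-09), from 5.65 ± 0.27 (SD, n = 4) and 6.57 ± 0.40 (SD, n = 4). Both clones were in the background range with the drug for Cxcl13, so each of its falls is a lower limit. Ccl12, a CCR2 ligand of the mouse, followed Ccl9, with 6.96 ± 0.70 (SD, n = 4) in the conventional clone under anti-CD3 alone and means of 3.50 to 3.87 in the other groups. It changed by -3.25 (SE 0.21, adjusted p = 2.6e-10) there, and the effects differed by 2.89 (SE 0.30, adjusted p = 9.1e-07).

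In the GRCm38.p6 gene table, Ccl1 follows Ccl2, Ccl7, Ccl11, Ccl12 and Ccl8 on chromosome 11 with no other protein-coding gene between them. Further along, Ccl5, Ccl9, Ccl6, Ccl3 and Ccl4 are neighbours in the same way. Within the second run the changes in the conventional clone ranged from -6.25 (Ccl3) to -0.29 (Ccl6), and the clone difference with the drug from -4.75 (Ccl4) to 2.55 (Ccl5). Ccl6 was in the background range in all groups, where a fall could hardly be seen. On chromosome 5 the order is Cxcl5, Ppbp, Pf4, Cxcl3, Cxcl15, Cxcl1 and Cxcl2, again without another protein-coding gene. There Ppbp, Cxcl3 and Cxcl2 were higher in the unconventional clone by 1.74 to 5.74 with anti-CD3 alone, and Cxcl5, in the background range, by 0.45 (adjusted p = 0.00053). The genes between them, Pf4, Cxcl15 and Cxcl1, differed by -0.16, -0.01 and -0.33, the last called lower (adjusted p = 0.021). Pf4 and Cxcl15 had no group mean above the background range, and the means of Cxcl1 (6.15 to 6.48) lay near its upper edge.

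Of 8 genes for receptors of these ligands, 5 (Ccr3, Ccr6, Xcr1, Cxcr1 and Cxcr2) were not called with the drug in either clone. Ccr4, the receptor of Ccl22, fell from 11.91 ± 0.02 (SD, n = 4) to 8.69 ± 0.11 (SD, n = 4) in the conventional clone and from 12.23 ± 0.16 (SD, n = 4) to 10.31 ± 0.10 (SD, n = 4) in the unconventional one. Ccr8, the receptor of Ccl1, named here after its values were seen, was in the background range in all groups and changed by -0.52 (SE 0.10, adjusted p = 0.00044) in the conventional clone. Ccr1, a receptor of Ccl3, Ccl5 and Ccl9, rose by 0.60 (adjusted p = 0.034) and 1.73 (adjusted p = 2.9e-06), from 6.56 ± 0.49 (SD, n = 4) and 5.88 ± 0.30 (SD, n = 4). The lower of these starting means lay in the background range.

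The genes outside the family with the most similar pattern were taken by Pearson's r over the 16 arrays, among 1093 genes whose group means spanned at least 2. The r describes these arrays, which fall into 4 groups, and says nothing about each pair beyond that. Xcl1 was most like the cytokine gene Il24 (r = 0.991) and the steroid-metabolising Akr1c18 (r = 0.990), and Ccl1 most like Akr1c18 (r = 0.986) and the cytokine Osm (r = 0.965). For Ccl3 they were Ttc39c (r = 0.994) and the growth factor Igf1 (r = 0.986), and for Ccl4 Ccdc71l (r = 0.987) and the phosphodiesterase Pde1a (r = 0.986). Ccl5 had the least similar partners, Syt1 (r = 0.933) and Gm2a (r = 0.931). Ccl9 and Ccl20 shared the potassium channel gene Kcna3 (r = 0.988 and r = 0.983), with Ambn for Ccl9 (r = 0.986) and Fat1 for Ccl20 (r = 0.988). Cxcl2 was most like Pcx (r = 0.962) and Sema7a (r = 0.956), and Ppbp most like Prelid2 (r = 0.991) and Kdm2b (r = 0.986). Among the members, Ccl1 and Xcl1 (r = 0.981), Ccl9 and Ccl20 (r = 0.965) and Ccl3 and Xcl1 (r = 0.964) were the most alike, and Ccl4 and Ppbp the least (r = -0.711).

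Within groups, some arrays were low or high for several members at once. Replicate 1 of the unconventional clone was the lowest of its group for 6 of the 10 genes with anti-CD3 alone and for 7 of 10 with the drug, and replicate 4 the highest for 6 and 7. In the conventional clone, replicate 2 was the lowest for 6 with anti-CD3 alone and for 5 with the drug.

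In the limma fit, 0 of 11 macrophage and dendritic cell markers fell with the drug in the conventional or unconventional clone, beside 15.5% and 12.3% of all genes. In each clone 2 of the 11 rose, beside 15.9% and 12.6% of all genes, a share near that of all genes. They were Cd68, with group means of 7.26 to 9.13, and Itgax, with 8.91 to 10.23. Without the drug, both were also called higher in the unconventional clone than in the conventional one, beside 20.3% of all genes. Flt3 was called lower, beside 21.7% of all genes. With the drug, Cd68 was called higher in the unconventional clone, beside 21.3% of all genes. Adgre1, Fcgr1 and Flt3 were called lower, beside 23.0% of all genes. The defining markers Csf1r (3.96 to 4.29) and Adgre1 (3.52 to 3.70) were at background. The summed level of the list was 54.1 to 54.9 and 56.7 to 57.9 in the conventional clone without and with the drug and 55.1 to 56.0 and 56.3 to 57.1 in the unconventional one. Its part in the results was not tested.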

How the data were processed

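Gene expression was measured on Affymetrix whole-transcript arrays, 4 in each of 4 groups. The authors deposited log2 expression levels for each probe set. The submitters' processing notes name GCOS, RMA and Partek 6.2 without saying what each did. Because RMA includes quantile normalization, a change common to most genes could not be seen. That the scale is log2 was read off the range, 2.08 to 14.55; the genome build is not given in the sources used here.

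Of 28853 probe sets, 21789 had 1 symbol in the platform annotation, 1621 several and 5443 none here. The probe set with the highest mean stood for a gene. A mean per group was fitted with limma 3.58.1 in R 4.3.3 (12 residual degrees of freedom, empirical Bayes), two-sided, with Benjamini-Hochberg adjustment over 19938 genes. Precision is set by the number of arrays. The fit was tested on simulated data. Members, lists and alternatives (block, normalization, dim genes, moderation, probe sets, arrays left out) were chosen with earlier results of these data known. Named were the members, other ligands and receptors called with a 2-fold change, and the 2 genes most like each member spanning at least 2. Promoter sequences are RefSeq's (GRCm38.p6). The labels do not say whether equal replicate numbers pair arrays, and the values do not settle it. Deviations of equal numbers correlated at -0.137 to 0.284, and 3 of 24 pairs exceeded 0.1. In 11 of the 24, an array correlated better with its own number in the other group than with the other numbers there. With 4 arrays per group, numbers without meaning would give this in about 1 of 4 cases.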

Additional observations from a re-analysis of the deposited data

Results flagged for a closer look

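The change with the drug, unconventional minus conventional clone, differed for 6 of the 10 chemokine genes in the interaction test of the limma fit. It was -1.29 for Ccl3, -2.38 for Ccl4, -1.35 for Cxcl2, 2.71 for Ccl5, 3.83 for Ccl9 and 1.96 for Ccl20 on the log2 scale. Among the related genes named, it was 2.89 for Ccl12, -0.79 for Cxcl13, 1.13 for the receptor gene Ccr1 and 1.29 for Ccr4. For Ccl9, Ccl20 and Ccl12 the unconventional clone was in the background range without the drug, with means of 5.34, 4.45 and 3.87. For Cxcl2 both clones were in that range with the drug (4.72 and 5.71), from 6.66 and 9.01 without it. Cxcl13 was in that range in both clones with the drug (4.16 and 4.29), and in the conventional clone without it (5.65). Ccr1 was in that range in the unconventional clone without the drug (5.88). All 4 group means of Ccl4 (7.05 to 12.55) and of Ccl5 (9.34 to 11.89) lay above that range.

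In 1 of 60 groups tested, a single array stood apart by Dixon's ratio at the 95% level. It was Ccl1 in the conventional clone with cyclosporine A, where replicate 1 read 5.35 and the others 5.66 to 5.72 (ratio 0.844). Chance alone flags about 1 group in 20.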

How the results depend on the processing

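Of 380 member values under settings other than leaving out an array, 366 kept their direction and their side of the threshold, 5 lost a call, 8 gained one and 1 changed sign, namely Xcl1 between the clones with cyclosporine A, not called, at 0.018 after quantile normalization against -0.05. With an array left out, 457 of 480 kept both. The sign changed for 2 results that were not called, that Xcl1 value (-0.161 to 0.071) and the difference of effects of Ccl22 (-0.013 to 0.132). With the replicate number as a block, Ppbp was called in the conventional clone (-0.86, adjusted p = 0.0071), 9 members were called lower there instead of 8, and no other call of the 10 genes moved; whether equal numbers mark a shared culture is unknown. Ppbp in the conventional clone was also called after quantile normalization (adjusted p = 0.049), median centring (0.028) and cyclic loess (0.047), among brighter genes (0.037) and on that clone's arrays alone (0.0091). The count of members called lower in the unconventional clone with anti-CD3 alone fell from 5 to 3 among brighter genes, where Ccl20 and Ccl22 are left out, and to 3 with a 2-fold threshold. With that threshold all genes called numbered 1009, 458, 622, 1543 and 1961 in the conventional and unconventional drug comparisons, their difference and the clone comparisons without and with the drug, against 6269, 4970, 3247, 8376 and 8821. The count of members called higher in the unconventional clone with the drug was 1 on its own arrays, against 0. Members called lower between the clones with the drug numbered 2 to 4 with an array left out. Dim genes near background limit what can be told for Ccl20, Ccl22 and the low groups of Ccl9, Xcl1 and Ppbp.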
